A study of Saccharomyces cerevisiae with 24 samples.

Results

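The genes described here are the 247 of 6571 annotated Saccharomyces cerevisiae genes that, in wild-type yeast, carried a sizeable amount of RNA from the opposite strand while their own strand still led. They were chosen from summed raw counts over the 6 wild-type libraries: at least 120 antisense counts, antisense between 0.1 and 1 times the sense counts, and no more than 0.1 of the antisense counts shared with a gene on the other strand. Of the remaining genes, 4990 had fewer than 120 antisense counts, 899 shared reads with an opposite-strand gene, 230 had more antisense than sense counts and 205 had antisense under 0.1 of sense. Because wild-type counts chose the genes, their wild-type levels are a description, and each difference from wild type shares its wild-type libraries with the choice.

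An antisense transcript runs through a gene on the opposite strand, often from the 3' end of the gene, from a neighbouring promoter that fires in both directions, or from a start site inside the gene. Passing polymerases can alter the chromatin over a promoter, and PHO84, which encodes the high-affinity phosphate transporter, is a textbook yeast gene whose antisense RNA goes with a silent sense promoter. Rad6 is the enzyme that attaches ubiquitin to histone H2B at lysine K123, the Paf1 complex subunit Rtf1 stimulates that step, and H2B ubiquitylation in turn promotes methylation of histone H3 over transcribed genes, a set of marks that helps keep transcription from starting in the wrong place.

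Strand-specific, rRNA-depleted RNA sequencing had been done on 24 cultures, 3 biological replicates of each of 8 strains, grown to log phase in rich YPD medium and mixed with Kluyveromyces lactis cells before RNA extraction. All strains were MATa his3Δ200 lys2-128δ ura3-52 trp1Δ63, so all were a-mating-type cells. The tagged rad6Δ strain carried 3xHA-RTF1 with rad6Δ::KanMX, and the untagged rad6Δ strain carried rad6Δ::KanMX alone. H2B-K123R, in which the ubiquitylated lysine of both H2B genes was replaced, carried HTA1-htb1K123R and HTA2-htb2-K123R and no tag. The rtf1-AAA strain carried 3HA-rtf1-108-110AAA and RAD6-13xMYC::KanMX. The rad6-R6Q and rad6-R6A,M10A strains, substituted in the N-terminal helix of Rad6, carried 3xHA-RTF1 and the mutant rad6 gene with the 13xMyc::KanMX tag. Of the wild types, the tagged one carried 3xHA-RTF1 and RAD6-13xMYC::KanMX and the untagged one neither. The tagged rad6Δ strain, both Rad6 substitution strains and rtf1-AAA were set against the tagged wild type, and the untagged rad6Δ and H2B-K123R strains against the untagged wild type. Each group was 1 strain, so p-values measure the spread between cultures of a strain, and a change of the genotype cannot be told apart from any other difference between the strains.

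Sense counts per library ranged between 7227245 and 10782960, antisense counts between 411344 and 611282, and K. lactis counts between 1051104 and 1591505. The 247 genes took 48533 to 81672 sense and 10274 to 15858 antisense counts per library. RAD6 itself had 0 to 0.126 CPM in the 6 rad6Δ libraries, against 45.66 to 62.22 CPM in the 6 wild-type libraries. It was above the tagged wild type in the other tagged mutants, with 68.8 to 132 CPM for rtf1-AAA, 112 to 146 for rad6-R6Q and 142 to 162 for rad6-R6A,M10A, which are log2 changes of 0.99, 1.34 and 1.61 (adjusted p = 0.00033, 1.3e-05 and 2e-06, edgeR). H2B-K123R had 67.5 to 70.4 CPM, and its change of 0.31 from the untagged wild type was not called (adjusted p = 0.2, edgeR). The part of RAD6 mRNA level in the results below was not tested. CPM, the count as parts of the library's sense total after edgeR's TMM scaling, is used on both strands, so that the strands of a gene can be compared.

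In the wild-type libraries the 247 genes had 151 to 7516 sense counts, with a median of 915, and 120 to 1846 antisense counts, with a median of 246. The ratio of antisense to sense ranged between 0.101 and 0.983, with a median of 0.267. At the edges of the rule, YDL057W was inside with 120 antisense counts and YOX1 outside with 116. MSC1 was inside at a ratio of 0.1007 and SEC20 outside at 0.0996, and at the upper edge SPO1 was inside at 0.9825 and BMT2 outside at 1.0107. For shared reads, SUT2 was inside with 0.096 of its antisense shared and HOS1 outside with 0.117. At 186 of the genes no antisense read was shared at all. Of the 247, 246 matched the R64 annotation; YLR252W did not, and 2 of the genes have a near-identical copy elsewhere. Their median length of 1189.5 bp was close to the 1188 bp of all annotated genes. The neighbour downstream pointed towards the gene for 65 of 246, or 26.4%, against 51.8% of all annotated genes, a difference that the rule against shared reads itself favours.

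Over the whole group, antisense made up a smaller share of the RNA in the tagged mutants than in the tagged wild type. Antisense was 14.5%, 14.4% and 14.9% of the summed counts of both strands in the tagged rad6Δ libraries, 17.5%, 16.3% and 16.1% for rtf1-AAA, 17%, 15.2% and 16.5% for rad6-R6Q, and 15.5%, 18% and 17.9% for rad6-R6A,M10A, against 22.9%, 23.3% and 22.8% in the tagged wild type. All 12 mutant libraries lay below the 3 wild-type ones. Among the untagged strains the share was 16.2%, 15.2% and 15.7% in rad6Δ and 19.2%, 19.9% and 22.1% in H2B-K123R, against 18.4%, 17.8% and 19.1% in wild type. There, rad6Δ lay below wild type and H2B-K123R above it, with no overlap. The rad6Δ position rested on 1 gene, ARG1: over the other 246 genes, a choice made after seeing the data, the share was 18.2%, 17.4% and 17.9% in untagged rad6Δ, against 18.3%, 17.7% and 18.9% in the untagged wild type, and the groups overlapped. Without ARG1 the 12 tagged mutant libraries had 16.4% to 19.8%, still below the 22.6% to 23.2% of the tagged wild type, and H2B-K123R had 20.2% to 23.2%, still above its wild type. The median of the genes' own antisense-to-sense ratios was 0.257 in untagged rad6Δ and 0.312 in H2B-K123R, against 0.246 in the untagged wild type, and 0.232 in tagged rad6Δ, 0.253 for rtf1-AAA, 0.266 for rad6-R6Q and 0.262 for rad6-R6A,M10A, against 0.294 in the tagged wild type. The wild types themselves differed: 23 ± 0.29% in the tagged and 18.4 ± 0.61% in the untagged strain (SD, n = 3 each), whereas the rad6Δ strains had 14.6 ± 0.26% and 15.7 ± 0.5% (SD, n = 3 each). In all other genes without shared reads antisense was 0.862% to 1.5% of both strands in every library. It was 1.17% to 1.4% in tagged rad6Δ, above the 1.13% to 1.15% of the tagged wild type. For rad6-R6Q it was 1.03% to 1.07%, below that wild type. The rtf1-AAA strain (1.09% to 1.36%) and rad6-R6A,M10A (1.04% to 1.18%) overlapped it. Untagged rad6Δ had 1.13% to 1.3% and H2B-K123R 1.31% to 1.5%, above the 0.862% to 1.09% of the untagged wild type. As in any bulk RNA, fewer cells with a transcript and less of it per cell cannot be told apart.

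**Figure D1:**
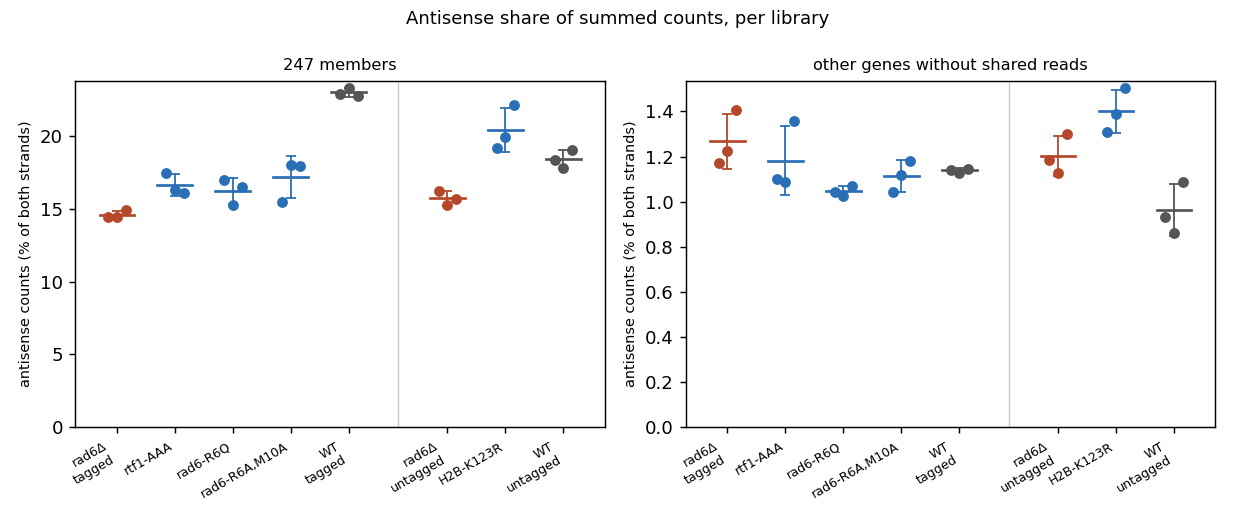
Antisense counts as a percentage of the counts on both strands in each of the 24 libraries (points), for the 247 genes and, on its own scale, for the other genes without shared reads; groups run along the horizontal axis, each mutant left of its wild type. The tagged rad6Δ strain lies lowest at 14.4% to 14.9%, and the tagged wild type highest at 22.8% to 23.3%.

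The difference between the wild types was spread over many of the genes. On the antisense strand, 88 of the 247 genes (35.6%) were higher in all tagged than in all untagged wild-type libraries, against 18.4% of all genes tested, and 5 genes (2.02%) were lower, against 3.77%. Between the tagged and the untagged rad6Δ strain 8 genes (3.24%) were higher and 24 (9.72%) lower without overlap, against 3.39% and 5.45% of all genes tested. The change that RAD6 deletion made, tagged minus untagged, differed on the antisense strand for 10 of the 247 genes (4.05%; 1 higher, 9 lower) by edgeR's interaction test, against 1.15% of all genes tested (0.0535% higher, 1.1% lower). On the sense strand it differed for 1 gene, PHO5, against 0.276% of all genes tested (0.225% higher, 0.0518% lower). The wild-type libraries that chose the genes enter both the wild-type counts and the interaction test. Nothing is therefore read from how those shares stand against the background. The strains within each pair differ in their tags, and the tags cannot be told apart from any other difference between the strains.

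Antisense levels were then compared gene by gene with edgeR's quasi-likelihood test over all 3741 genes tested on that strand, with Benjamini-Hochberg adjustment and a gene called at an adjusted p under 0.05; all 247 genes passed the filter on low counts. In tagged rad6Δ, 111 of the 247 genes (44.9%) were called, 16 higher and 95 lower, against 28.2% of all genes tested, 15.3% higher and 12.9% lower. The rtf1-AAA strain had 90 calls (36.4%), 9 higher and 81 lower, against 20.4% of all genes (11% higher, 9.46% lower). For rad6-R6Q there were 94 calls (38.1%), 9 higher and 85 lower, against 21.5% (9.94% higher, 11.5% lower). The rad6-R6A,M10A strain had 81 (32.8%), 13 higher and 68 lower, against 18.7% (10.5% higher, 8.26% lower). In all 4 comparisons the genes that fell outnumbered those that rose, with median log2 fold changes of -0.43, -0.42, -0.43 and -0.37, against 0.10, 0.10, -0.12 and 0.01 over all genes tested.

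The untagged mutants showed another balance. In untagged rad6Δ 84 genes (34%) were called, 40 higher and 44 lower, against 29.5% of all genes tested (22.7% higher, 6.76% lower), with a median log2 fold change of -0.06, against 0.30 over all genes. In H2B-K123R 91 genes (36.8%) were called, 69 higher and 22 lower, against 33% of all genes tested (28.8% higher, 4.17% lower), with a median of 0.30, against 0.37 over all genes. Since the wild-type antisense counts chose the genes, nothing is read from how these shares stand against the background. The difference between the H2B-K123R and rad6Δ strains over wild type was tested only in the direct comparison of those strains given below.

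**Figure D2:**
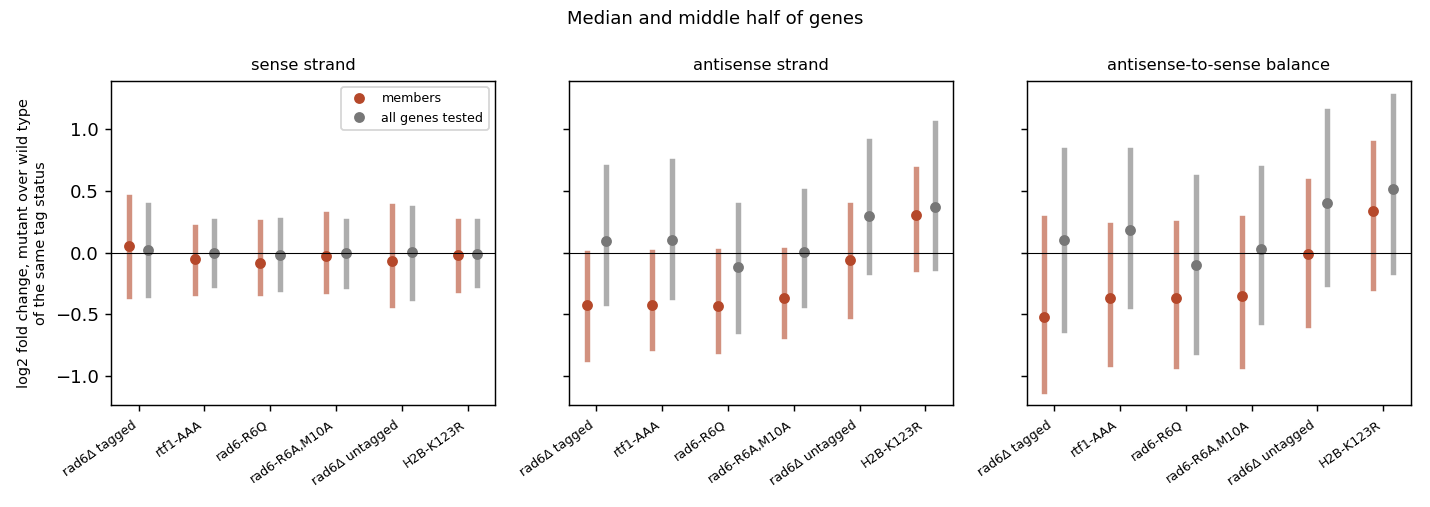
Median (point) and middle 50% (bar) of the log2 fold change of each mutant over its own wild type, on the sense strand, the antisense strand and for the antisense-to-sense balance, for the 247 genes and for all genes tested. Sense medians lie within 0.1 of 0, while antisense medians of the 247 genes are between -0.43 and -0.37 in the 4 tagged mutants and 0.30 in H2B-K123R.

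When the genes were chosen from the other wild type alone, so that no library of the comparison took part in the choice, the counts were close to these. On the antisense strand 45.4% of 229 genes were called in tagged rad6Δ (17 higher, 87 lower), 37.6% for rtf1-AAA (10 higher, 76 lower), 39.3% for rad6-R6Q (12 higher, 78 lower) and 34.5% for rad6-R6A,M10A (14 higher, 65 lower). Of 268 genes, 35.1% were called in untagged rad6Δ (49 higher, 45 lower) and 39.6% in H2B-K123R (83 higher, 23 lower). Other genes with at least 120 wild-type antisense counts had like values: in tagged rad6Δ 47.8% of those with more antisense than sense and 41.5% of those with antisense under 0.1 of sense were called, with medians of -0.32 and -0.35. These values are set side by side, and no difference between these sets of genes was tested.

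Scaling by the K. lactis counts in place of TMM moved the median sense change of all genes to 0.21 in tagged rad6Δ, 0.12 in untagged rad6Δ, -0.09 in H2B-K123R, 0.25 for rtf1-AAA, 0.19 for rad6-R6Q and 0.21 for rad6-R6A,M10A. On that scale the antisense calls among the 247 genes were 22 higher and 65 lower in tagged rad6Δ, 17 and 41 for rtf1-AAA, 17 and 50 for rad6-R6Q, and 18 and 32 for rad6-R6A,M10A. They were 50 higher and 31 lower in untagged rad6Δ, where TMM gave more falls than rises, and 59 and 25 in H2B-K123R. On that scale the median antisense change of all genes was 0.285 in tagged rad6Δ, 0.359 for rtf1-AAA, 0.0881 for rad6-R6Q and 0.219 for rad6-R6A,M10A. It was 0.428 in untagged rad6Δ and 0.289 in H2B-K123R. Over the 247 genes it was -0.239, -0.176, -0.225, -0.153, 0.0657 and 0.216 in that order. The share of all genes called on that scale was not counted here. The ratio of the strands within a library does not depend on the scaling. This antisense-to-sense balance was called for 114 genes (46.2%) in tagged rad6Δ, against 29.2% of all genes tested. It was called for 91 (36.8%) in untagged rad6Δ against 31.4%, for 103 (41.7%) in H2B-K123R against 36.2% and for 77 (31.2%) for rtf1-AAA against 21%. In rad6-R6Q it was called for 88 (35.6%) against 23.4%, and in rad6-R6A,M10A for 82 (33.2%) against 21%. Its median log2 change was -0.52, -0.01, 0.34, -0.37, -0.37 and -0.35 in that order, against 0.10, 0.40, 0.51, 0.19, -0.10 and 0.03 over all genes tested.

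The same test was run on the sense strand, where nothing is read from the background either. In tagged rad6Δ 101 genes (40.9%; 57 higher, 44 lower) were called, against 41.7% of the 5790 genes tested (21.5% higher, 20.2% lower). Untagged rad6Δ had 111 calls (44.9%; 56 higher, 55 lower) against 42.8% (22.3% higher, 20.5% lower). H2B-K123R had 69 (27.9%; 39 higher, 30 lower) against 26.3% (14% higher, 12.3% lower). The rtf1-AAA strain had 67 (27.1%; 31 higher, 36 lower) against 24.5% (11.9% higher, 12.6% lower). For rad6-R6Q there were 72 calls (29.1%; 31 higher, 41 lower) against 29.1% (14.6% higher, 14.5% lower), and for rad6-R6A,M10A 61 (24.7%; 29 higher, 32 lower) against 25.2% (12% higher, 13.2% lower). With the K. lactis scaling the splits were 86 higher and 25 lower, 66 and 37, 34 and 33, 57 and 17, 62 and 22, and 58 and 16, in the same order of mutants, each toward more rises except in H2B-K123R. The share of all genes called with that scaling was not counted, so these splits are given as counts only.

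Calls on both strands were counted next. In tagged rad6Δ 38 of the 247 genes (15.4%) were called on both strands, against 11% of the 3242 genes tested on both, in untagged rad6Δ 47 (19%) against 13.5%, in H2B-K123R 25 (10.1%) against 9.69%, for rtf1-AAA 23 (9.31%) against 5.31%, for rad6-R6Q 29 (11.7%) against 6.88% and for rad6-R6A,M10A 22 (8.91%) against 5.31%. Both strands rose for 1, 9, 5, 0, 0 and 0 genes in that order (background 2.62%, 4.35%, 3.67%, 0.802%, 0.802% and 0.987%), and both fell for 10, 8, 2, 7, 8 and 6 (background 1.6%, 0.74%, 0.0925%, 0.833%, 1.23% and 0.74%). In tagged rad6Δ, 25 of the 247 genes rose on the sense strand while antisense fell, against 3.33% of those tested on both strands, and 2 did the opposite, against 3.39%. The first pattern was seen in 18 genes in untagged rad6Δ (background 2.1%), 8 in H2B-K123R (1.26%), 15 for rtf1-AAA (1.6%), 21 for rad6-R6Q (2.44%) and 15 for rad6-R6A,M10A (1.57%). A fall of sense with a rise of antisense was seen in 12 genes in untagged rad6Δ (6.32%), 10 in H2B-K123R (4.66%), 1 for rtf1-AAA (2.07%), 0 for rad6-R6Q (2.41%) and 1 for rad6-R6A,M10A (2%). Since a gene's wild-type antisense chose it, these shares are given as counts only.

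**Figure D3:**
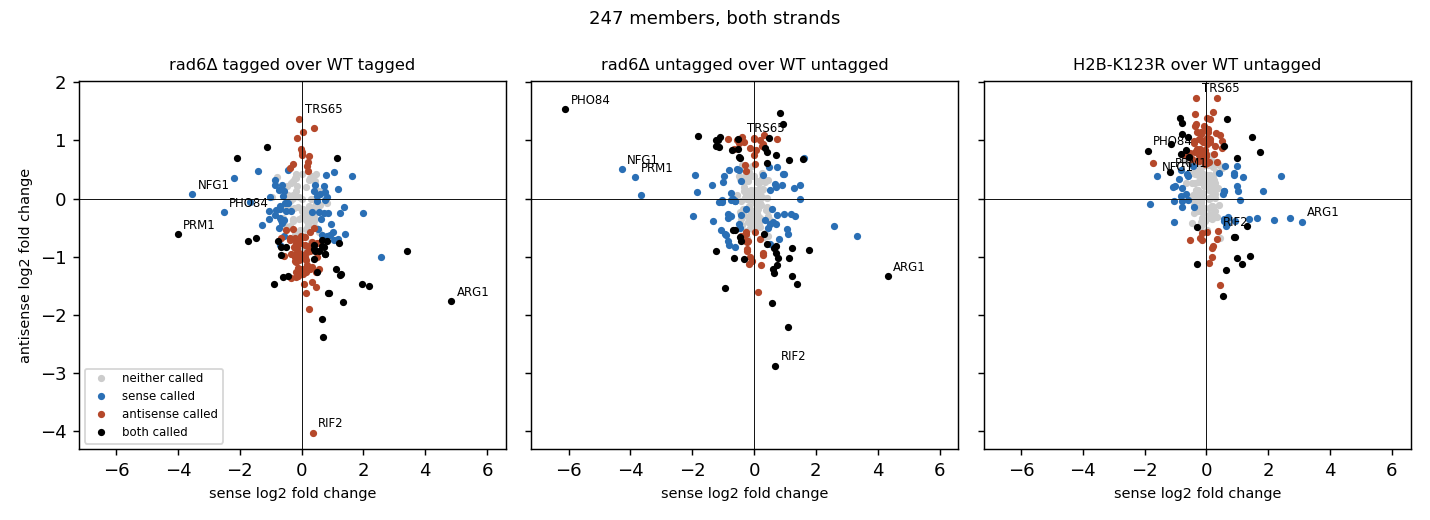
Sense (horizontal) against antisense (vertical) log2 fold change of the 247 genes in tagged rad6Δ, untagged rad6Δ and H2B-K123R over their wild types; colour gives the strand or strands called at an adjusted p under 0.05. ARG1 lies far to the right, PHO84, PRM1 and NFG1 to the left, and RIF2 at the bottom in the rad6Δ strains.

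ARG1 had the widest sense gain of the 247 genes in all 6 mutants. ARG1 (YOL058W, R64 chrXV:219211-220473, plus strand), which encodes argininosuccinate synthase of the arginine pathway, had antisense at 0.501 of sense in wild type. Its sense level was 1285, 1155 and 1423 CPM in tagged rad6Δ, 826, 946 and 820 for rtf1-AAA, 874, 1024 and 865 for rad6-R6Q, and 766, 731 and 876 for rad6-R6A,M10A, against 45.7, 39.5 and 50.2 CPM in the tagged wild type. It was 1041, 1191 and 1211 CPM in untagged rad6Δ and 502, 478 and 471 CPM in H2B-K123R, against 60.2, 60.5 and 51.2 CPM in the untagged wild type. Every mutant library lay far above every wild-type library, and H2B-K123R lay lowest among the mutants.

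ARG1 antisense was 7.81, 6.17 and 10.8 CPM in tagged rad6Δ, against 31.6, 24.2 and 28.9 CPM in the tagged wild type, and 10.3, 7.24 and 10.4 CPM in untagged rad6Δ, against 22.9, 24.2 and 23.3 CPM in the untagged wild type. Antisense fell by 1.77 ± 0.18 on the log2 scale in tagged rad6Δ (SE; adjusted p = 2.4e-08, edgeR) and by 1.33 ± 0.18 in untagged rad6Δ. It fell by 1.49, 1.45 and 1.48 for rtf1-AAA, for rad6-R6Q and for rad6-R6A,M10A. In H2B-K123R, with 19.2, 18.3 and 16 CPM, the change of -0.40 ± 0.17 was not called (adjusted p = 0.074, edgeR). Compared directly, H2B-K123R had more ARG1 antisense than untagged rad6Δ, by 0.93 ± 0.18 on the log2 scale (adjusted p = 0.0023, edgeR). Antisense was 0.63 ± 0.12% of both strands in tagged rad6Δ, against 38.4 ± 2.2% in the tagged wild type (SD, n = 3 each), so that the sense strand alone made up nearly all ARG1 RNA there.

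The region upstream of the ARG1 start codon is shown because the sense change is large and it holds the letters that Gcn4, the activator of amino acid synthesis genes, is known to bind. The window covers chrXV:218861-219110 (R64, plus strand), 350 to 101 bases before the start codon, with TGACTC and its reverse GAGTCA in capitals.
ARG1: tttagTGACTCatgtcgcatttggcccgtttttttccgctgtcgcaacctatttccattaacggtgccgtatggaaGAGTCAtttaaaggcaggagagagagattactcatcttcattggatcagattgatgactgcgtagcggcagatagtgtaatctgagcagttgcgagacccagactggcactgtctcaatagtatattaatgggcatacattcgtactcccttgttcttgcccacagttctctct
Matches begin 345 and 274 bases before the start codon. TGACTC on either strand was found in 425 of 5896 such windows (7.21%) and in 17 of 246 windows of the genes described here (6.91%). A match is a run of letters, and no binding was measured here.

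Phosphate genes set the wild types apart. PHO84 (YML123C, chrXIII:24037-25800, minus strand) had sense levels of 4.76, 3.58 and 3.4 CPM in tagged rad6Δ, against 45.1, 9.85 and 13 CPM in the tagged wild type, and 2.76, 4.06 and 5.22 CPM in untagged rad6Δ and 105, 89.5 and 32 CPM in H2B-K123R, against 429, 191 and 227 CPM in the untagged wild type. Both rad6Δ strains were low alike, while the wild types lay apart from each other without overlap.

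PHO84 antisense was 26.4, 19.9 and 24.2 CPM in tagged rad6Δ, against 26.7, 26.9 and 29.4 CPM in the tagged wild type, and 23.7, 25.5 and 26.8 CPM in untagged rad6Δ, against 4.66, 11.2 and 10.3 CPM in the untagged wild type. The untagged pair was far apart, and the tagged pair lay close with rad6Δ just below wild type. In untagged rad6Δ sense fell by 6.11 ± 0.65 on the log2 scale (adjusted p = 7.3e-07) and antisense rose by 1.54 ± 0.22 (adjusted p = 7.3e-06, edgeR). H2B-K123R changed in the same directions, by -1.90 ± 0.50 on the sense strand (adjusted p = 0.0091) and 0.82 ± 0.23 on the antisense strand (adjusted p = 0.0062, edgeR). The antisense call ended in the fit of the compared groups alone, and both calls ended without untagged wild-type replicate 1, with -1.47 (adjusted p = 0.057) and 0.52 (adjusted p = 0.055, edgeR).

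In tagged rad6Δ the PHO84 sense strand fell by 2.52 ± 0.65 (adjusted p = 0.0043, edgeR), but without tagged wild-type replicate 1 the change was -1.54 (adjusted p = 0.055, edgeR). Its antisense change of -0.24 ± 0.21 was not called. For rtf1-AAA, for rad6-R6Q and for rad6-R6A,M10A PHO84 antisense was lower by log2 values of -0.68, -0.81 and -0.70 (adjusted p = 0.021, 0.0061 and 0.019, edgeR), while sense changes of 0.18, 0.89 and 1.22 were not called. With the K. lactis scaling these 3 antisense calls were lost, at -0.43, -0.60 and -0.47 (adjusted p = 0.19, 0.071 and 0.16, edgeR). Leaving out rtf1-AAA replicate 1, rad6-R6A,M10A replicate 1 or 2 or tagged wild-type replicate 3 also ended the call of the mutant concerned. Between mutants, PHO84 sense was higher than in tagged rad6Δ in rad6-R6A,M10A, by 3.74 ± 0.63, and in rad6-R6Q, by 3.41 ± 0.63, and higher in H2B-K123R than in untagged rad6Δ by 4.21 ± 0.62.

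PHO5 (YBR093C, chrII:429548-430951, minus strand), the main repressible acid phosphatase of the same regulon, had 13.9, 12.1 and 13.7 sense CPM in tagged rad6Δ, against 26.7, 16.8 and 19.4 CPM in the tagged wild type, and 12.5, 14.7 and 12.8 CPM in untagged rad6Δ, against 251, 130 and 124 CPM in the untagged wild type. It fell by 3.66 ± 0.44 in untagged rad6Δ (adjusted p = 2.3e-06) and by 1.82 ± 0.39 in H2B-K123R (adjusted p = 0.0021, edgeR), and the change of -0.66 ± 0.43 in tagged rad6Δ was not called. In the Rad6 substitution strains it went the other way, with a rise of 1.25 ± 0.41 for rad6-R6Q (adjusted p = 0.028) and of 1.14 ± 0.41 for rad6-R6A,M10A (adjusted p = 0.048, edgeR), while 0.79 ± 0.41 for rtf1-AAA was not called. The rad6-R6Q call was lost without rad6-R6Q replicate 1 or tagged wild-type replicate 2 or 3 (0.97 to 1.20), and the rad6-R6A,M10A call without rad6-R6A,M10A replicate 1 (0.42) or any 1 tagged wild-type replicate (1.00 to 1.35), without the filter and in the fit of the compared groups alone. Antisense of PHO5 fell by 0.67 in tagged rad6Δ, 0.74 for rtf1-AAA, 0.93 for rad6-R6Q and 0.69 for rad6-R6A,M10A on the log2 scale, and was not called in the untagged mutants; the rtf1-AAA and rad6-R6A,M10A calls were lost with the K. lactis scaling. CTT1, the cytosolic catalase T whose antisense has been described in yeast, changed on the antisense strand in tagged rad6Δ, at -1.52 ± 0.28 (adjusted p = 0.00016, edgeR). Its rad6-R6Q change of -0.74 ± 0.26 was called too, but not without any 1 of the 3 rad6-R6Q replicates or without tagged wild-type replicate 1 or 3, and not with the K. lactis scaling, with DESeq2 or without the filter.

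PRM1 had the widest sense fall in tagged rad6Δ. It is one of the pheromone-response genes, which are switched on by the factor Ste12 when a cell senses a mating partner and have a low basal level otherwise. PRM1 (YNL279W, chrXIV:110917-112902, plus strand), a membrane protein of cell fusion in mating, had 3.66, 3.82 and 4.92 sense CPM in tagged rad6Δ, 66.5, 67.1 and 42.4 for rtf1-AAA, 34.3, 38.8 and 35.8 for rad6-R6Q and 37.6, 42.3 and 35.8 for rad6-R6A,M10A, against 71, 55.2 and 74.4 CPM in the tagged wild type. It had 3.76, 4.38 and 5.52 CPM in untagged rad6Δ and 30.6, 29.6 and 26.5 CPM in H2B-K123R, against 68.6, 60 and 69.6 CPM in the untagged wild type. The rad6Δ strains lay lowest by far, H2B-K123R and the Rad6 substitutions in between, and rtf1-AAA overlapped wild type.

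PRM1 sense fell by 4.01 ± 0.19 in tagged and 3.84 ± 0.19 in untagged rad6Δ, 1.19 ± 0.16 in H2B-K123R, 0.88 ± 0.16 for rad6-R6Q and 0.79 ± 0.16 for rad6-R6A,M10A on the log2 scale, and the change of -0.19 ± 0.15 for rtf1-AAA was not called (adjusted p = 0.4, edgeR). Against tagged rad6Δ, PRM1 sense was higher by 3.82 ± 0.19 for rtf1-AAA, 3.13 ± 0.19 for rad6-R6Q and 3.22 ± 0.19 for rad6-R6A,M10A. Its antisense moved little beside that: 29.8, 25.5 and 26.8 CPM in tagged rad6Δ, against 39.4, 41.6 and 45 CPM in the tagged wild type, and 28.1, 26.2 and 30.2 CPM in untagged rad6Δ, against 18.8, 23.1 and 23.7 CPM in the untagged wild type. The rad6Δ strains overlapped, below one wild type and above the other. Antisense therefore made up 86.8 ± 2.3% of PRM1 RNA in tagged rad6Δ and 86.1 ± 1.9% in untagged rad6Δ, against 38.8 ± 3.8% in the tagged and 24.9 ± 3.2% in the untagged wild type (SD, n = 3 each).

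The PRM1 window is shown for its matches to TGAAACA, the sequence that Ste12 binds, given in capitals on either strand as TGAAACA or TGTTTCA. It covers chrXIV:110567-110816 (R64, plus strand), 350 to 101 bases before the start codon.
PRM1: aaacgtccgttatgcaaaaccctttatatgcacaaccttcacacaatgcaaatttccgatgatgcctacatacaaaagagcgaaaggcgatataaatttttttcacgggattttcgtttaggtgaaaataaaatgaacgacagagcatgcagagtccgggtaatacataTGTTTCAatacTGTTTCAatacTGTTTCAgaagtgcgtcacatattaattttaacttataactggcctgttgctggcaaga
It held 3 matches, which begin 181, 170 and 159 bases before the start codon. The motif was found in 358 of 5896 such windows (6.07%) and in 17 of 246 windows of the genes described here (6.91%).

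NFG1 (YLR042C, chrXII:229966-230451, minus strand), a negative regulator of the filamentous growth pathway, fell on the sense strand by 3.54 ± 0.42 in tagged and 4.28 ± 0.46 in untagged rad6Δ, 1.61 ± 0.33 in H2B-K123R, 1.77 ± 0.33 for rtf1-AAA, 2.39 ± 0.35 for rad6-R6Q and 2.27 ± 0.35 for rad6-R6A,M10A. The rad6Δ values rest on 0 to 7 counts per library, against 40 to 58 in the wild-type libraries. No antisense change of NFG1 was called in these 6 mutants. A list of 75 genes of pheromone signalling and mating, drawn up after values had been seen, had 10 of its genes among the 247. On the sense strand 1 of the 10 was higher and 8 lower in tagged rad6Δ, 0 and 7 in untagged rad6Δ, 0 and 5 in H2B-K123R, 1 and 3 for rtf1-AAA, 0 and 7 for rad6-R6Q, and 1 and 4 for rad6-R6A,M10A; the shares over all genes tested are those given for the sense strand above. KAR4, a transcription factor of the mating response, fell by 1.72 and 1.31 in tagged and untagged rad6Δ, 0.78 in H2B-K123R, 0.56 for rtf1-AAA, 0.84 for rad6-R6Q and 1.00 for rad6-R6A,M10A; the rtf1-AAA call was lost with the K. lactis scaling (adjusted p = 0.11, edgeR).

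PRM2, which serves nuclear fusion after mating, fell by 2.18 and 1.84 in tagged and untagged rad6Δ, and PRM8 by 1.05 and 0.84. ASG7, a regulator of the pheromone G protein that only a cells express, fell by 2.08 and 1.80 on the sense strand while its antisense rose by 1.08 in untagged rad6Δ and 1.38 in H2B-K123R. DIG2, an inhibitor of Ste12, was the gene that was higher: its sense strand rose by 1.19 ± 0.26 in tagged rad6Δ, 1.04 ± 0.26 for rtf1-AAA and 0.96 ± 0.26 for rad6-R6A,M10A (adjusted p = 0.00083, 0.0057 and 0.01, edgeR), the last call being lost without tagged wild-type replicate 2 and that of rtf1-AAA in the fit of the compared groups alone. In untagged rad6Δ DIG2 changed by 0.01 ± 0.24, which was not called. KSS1, a kinase of the filamentous growth pathway that also answers pheromone, fell by 0.70 and 1.00 in tagged and untagged rad6Δ. MSG5, a phosphatase of the pathway's kinases, fell by 0.69 and 0.81 there and by 0.74 for rad6-R6Q. PRM10 fell by 0.71 in tagged rad6Δ, 1.17 for rtf1-AAA and 1.13 for rad6-R6Q. Of these, the KSS1 and PRM10 calls in tagged rad6Δ and the 3 MSG5 calls were lost with the K. lactis scaling and when single libraries were left out.

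AFR1, which shapes the mating projection, had no sense call in the 6 mutants, and its antisense changed by -0.71 in tagged rad6Δ, -0.73 for rtf1-AAA, -1.01 for rad6-R6Q and -0.66 for rad6-R6A,M10A, all called; the calls other than that of rad6-R6Q were lost without tagged wild-type replicate 2, and that of rad6-R6A,M10A also without its replicate 1. The same 3 calls were lost with the K. lactis scaling, and that of rtf1-AAA in the fit of the compared groups alone. Genes that mark a cells moved along: MFA1, MFA2, STE2, BAR1 and AGA2 summed to 325 to 374 CPM in tagged rad6Δ, 1150 to 1310 for rtf1-AAA, 858 to 1230 for rad6-R6Q and 1140 to 1210 for rad6-R6A,M10A, against 2000 to 2090 CPM in the tagged wild type. The sums were 365 to 402 CPM in untagged rad6Δ and 1040 to 1070 CPM in H2B-K123R, against 1960 to 2090 CPM in the untagged wild type. All 5 markers were detected in every library, and the 3 alpha-cell markers MFALPHA1, MFALPHA2 and STE3 summed to no more than 10.2 CPM in any. These low alpha sums were 8.34 to 10.2 CPM in H2B-K123R and 5.39 to 6.58 in untagged rad6Δ, against 4.04 to 4.91 in the untagged wild type. They were 4.39 to 7.52 CPM in tagged rad6Δ and 3.61 to 5.52 for rtf1-AAA, against 3.66 to 4.58 in the tagged wild type. For rad6-R6Q they were 5.41 to 7.2 CPM and for rad6-R6A,M10A 6.49 to 7.1 CPM. The part of these markers in the pheromone-gene result was not tested.

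RIF2 had the widest antisense change in both rad6Δ strains. RIF2 (YLR453C, chrXII:1041799-1042986, minus strand) encodes a telomere protein that binds Rap1 and restrains telomere lengthening. Its antisense was 0.732, 1.36 and 1.64 CPM in tagged rad6Δ, 7.52, 7.37 and 5.72 for rtf1-AAA, 5.96, 5.44 and 5.27 for rad6-R6Q, and 5.7, 6.24 and 7.97 for rad6-R6A,M10A, against 19.4, 19.8 and 22.1 CPM in the tagged wild type. It was 2.51, 0.987 and 1.51 CPM in untagged rad6Δ and 7.49, 6.9 and 10.4 CPM in H2B-K123R, against 12.3, 11.7 and 12.5 CPM in the untagged wild type. No mutant library reached its wild type, the rad6Δ strains lay lowest, and the other 4 mutants lay between.

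**Figure D4:**
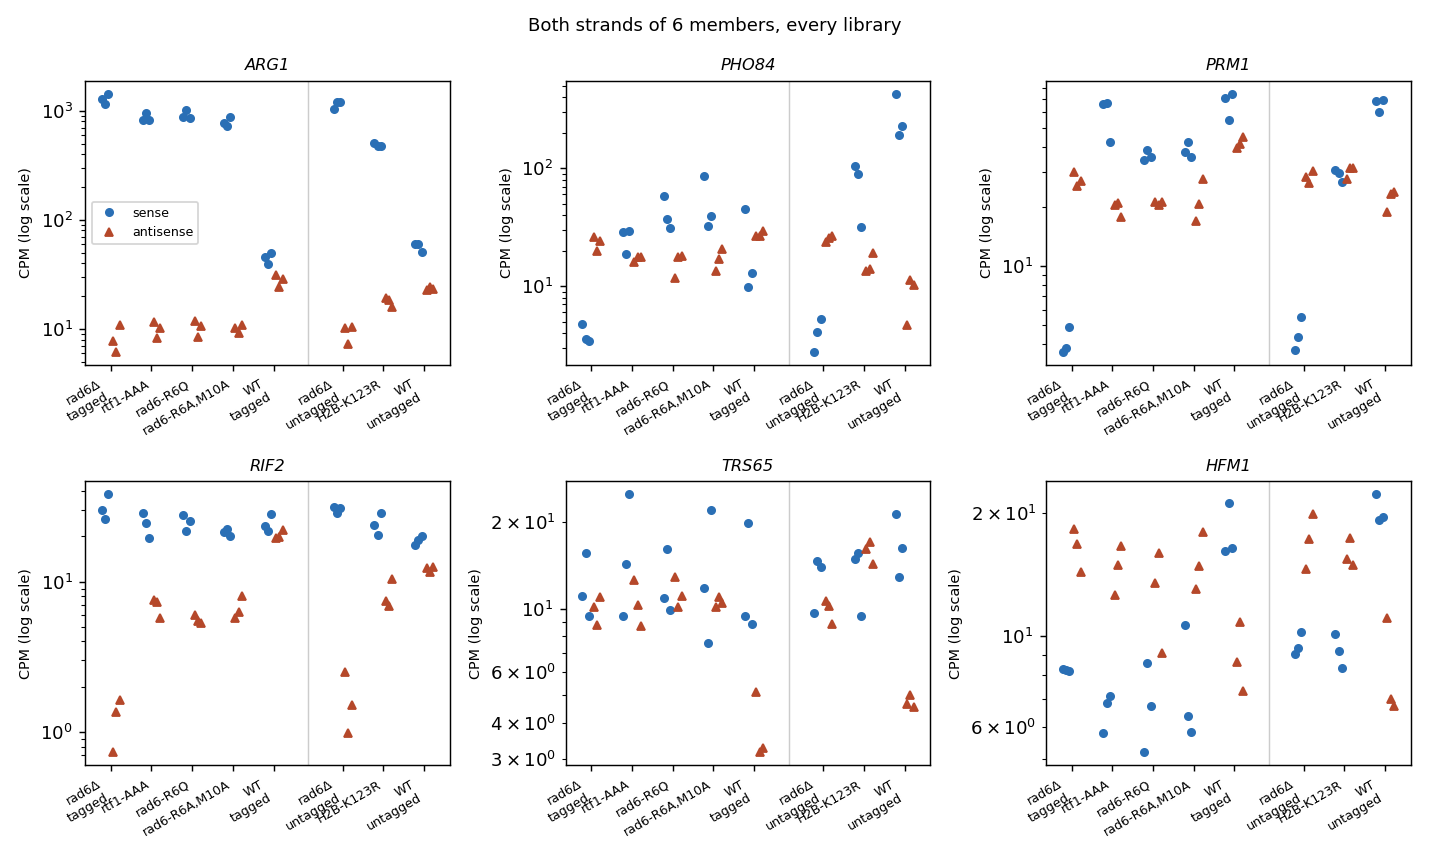
Sense (circles) and antisense (triangles) CPM on a log scale in all 24 libraries for ARG1, PHO84, PRM1, RIF2, TRS65 and HFM1, with tagged strains left and untagged strains right of the grey line. ARG1 sense is 471 to 1423 CPM in the mutants, against 39.5 to 60.5 CPM in the wild types, and RIF2 antisense is 0.732 to 2.51 CPM in the rad6Δ strains, against 11.7 to 22.1 CPM in the wild types.

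RIF2 antisense fell by 4.03 ± 0.25 in tagged rad6Δ (adjusted p = 2.3e-12) and 2.88 ± 0.24 in untagged rad6Δ (adjusted p = 1e-09, edgeR). It fell by 1.58, 1.88 and 1.62 for rtf1-AAA, for rad6-R6Q and for rad6-R6A,M10A, each with an SE of 0.20. The H2B-K123R change of -0.56 ± 0.20 (adjusted p = 0.033) lost its call without H2B-K123R replicate 1 or 2 or any 1 of the 3 untagged wild-type replicates, at -0.58 to -0.44 (adjusted p = 0.057 to 0.15, edgeR). Sense levels of RIF2 changed by 0.68 ± 0.16 in untagged rad6Δ (adjusted p = 0.0016, edgeR), and no other sense change from wild type was called.

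Between mutants, RIF2 antisense was higher than in tagged rad6Δ by 2.15 ± 0.28 for rad6-R6Q, 2.41 ± 0.27 for rad6-R6A,M10A and 2.45 ± 0.27 for rtf1-AAA (adjusted p = 8.9e-06, 1.1e-06 and 8.4e-07, edgeR). It was higher in H2B-K123R than in untagged rad6Δ by 2.32 ± 0.25 (adjusted p = 5.4e-07, edgeR). The fit used all 24 libraries, wild types included, and RIF2 was named partly by the size of these differences. The gene downstream of RIF2 on the same strand is SST2, 432 bp away, so the RIF2 antisense strand runs away from the upstream region of SST2. SST2, named here after its values had been seen, encodes the protein that shuts off the pheromone G protein, and it is induced by pheromone.

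SST2 sense levels were 86.8, 80.2 and 78.3 CPM in tagged rad6Δ, 286, 269 and 246 for rtf1-AAA, 224, 239 and 216 for rad6-R6Q and 227, 263 and 225 for rad6-R6A,M10A, against 661, 621 and 735 CPM in the tagged wild type. They were 88, 82 and 87.4 CPM in untagged rad6Δ and 193, 186 and 245 CPM in H2B-K123R, against 547, 553 and 591 CPM in the untagged wild type. Its changes were -3.04 ± 0.11 and -2.71 ± 0.11 in tagged and untagged rad6Δ, -1.44 ± 0.10 in H2B-K123R and -1.33, -1.57 and -1.50 for rtf1-AAA, for rad6-R6Q and for rad6-R6A,M10A. As with RIF2 antisense, the rad6Δ strains were lowest and the other 4 mutants lay between them and wild type. For the 175 genes described here with a tested downstream neighbour on the same strand, antisense and neighbour changes correlated weakly. Pearson values were 0.115 in tagged rad6Δ, 0.0697 in untagged rad6Δ, 0.0662 in H2B-K123R and 0.111 to 0.185 in the other mutants. With both called, 33 of 42 such pairs moved the same way in tagged rad6Δ, 20 of 25 in untagged rad6Δ and 10 of 20 in H2B-K123R. There were 16 of 21 for rtf1-AAA, 17 of 25 for rad6-R6Q and 15 of 23 for rad6-R6A,M10A. Other genes with at least 120 wild-type antisense counts and no shared reads gave 43 of 56, 29 of 40 and 15 of 31 in the first 3 mutants. They gave 24 of 30, 31 of 41 and 13 of 21 in the last 3. No difference between these sets of genes was tested. A shared cause for RIF2 antisense and SST2 was not tested.

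The SST2 window lies between the genes and covers chrXII:1041467-1041716 (R64, minus strand), 350 to 101 bases before the SST2 start codon, with TGAAACA in capitals. It is shown because it lies upstream of SST2 and beyond the 3' end of RIF2. Where the RIF2 antisense RNA starts was not measured here.
SST2: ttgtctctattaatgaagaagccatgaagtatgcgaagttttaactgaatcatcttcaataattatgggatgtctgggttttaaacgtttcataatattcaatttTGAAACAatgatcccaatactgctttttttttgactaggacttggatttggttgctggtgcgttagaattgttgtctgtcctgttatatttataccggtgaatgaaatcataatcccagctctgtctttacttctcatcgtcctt
It held 1 match, which begins 245 bases before the start codon.

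**Figure D5:**
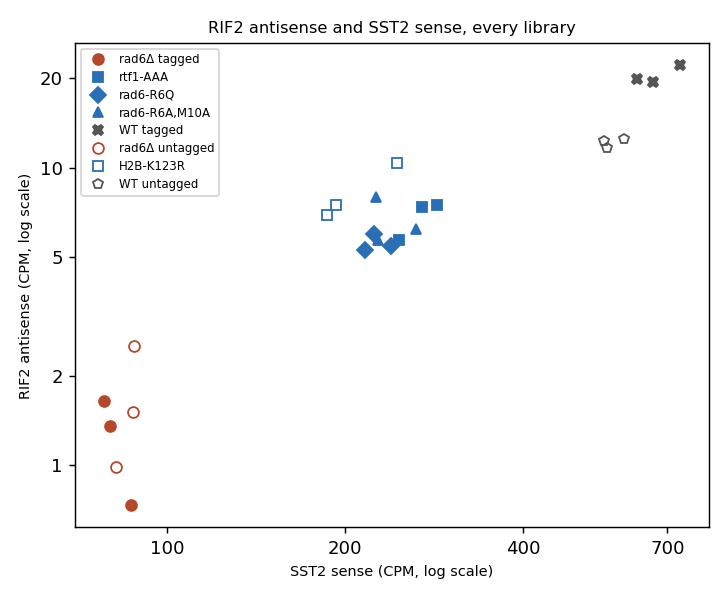
RIF2 antisense (vertical) against SST2 sense (horizontal) in CPM on log axes, 1 point per library. The 6 rad6Δ libraries lie at 0.732 to 2.51 CPM of RIF2 antisense and 78.3 to 88 CPM of SST2, the wild-type libraries at 11.7 to 22.1 and 547 to 735 CPM, and the other mutants between them.

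TRS65, APE1 and VRL1 rose on the antisense strand in all 6 mutants, which share their wild-type libraries. TRS65 (YGR166W, chrVII:830515-832197, plus strand), a subunit of the TRAPP II vesicle-traffic complex, had 10.1, 8.76 and 11 antisense CPM in tagged rad6Δ, 12.6, 10.3 and 8.72 for rtf1-AAA, 12.9, 10.2 and 11.1 for rad6-R6Q and 10.1, 11 and 10.5 for rad6-R6A,M10A, against 5.11, 3.16 and 3.28 CPM in the tagged wild type. It had 10.7, 10.2 and 8.83 CPM in untagged rad6Δ and 16.1, 17 and 14.3 CPM in H2B-K123R, against 4.66, 5.02 and 4.53 CPM in the untagged wild type. Every mutant library was above every wild-type one, and H2B-K123R was highest.

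TRS65 antisense rose by 1.37, 1.06, 1.73, 1.44, 1.56 and 1.45 on the log2 scale in tagged rad6Δ, untagged rad6Δ, H2B-K123R, rtf1-AAA, rad6-R6Q and last rad6-R6A,M10A (SE 0.18 to 0.19), and no sense change was called. H2B-K123R was above untagged rad6Δ by 0.68 ± 0.17 (adjusted p = 0.016, edgeR), a call lost without H2B-K123R replicate 2, without untagged rad6Δ replicate 2 or 3 (0.60 to 0.70, adjusted p = 0.063 to 0.094) and with the K. lactis scaling (0.47, adjusted p = 0.13). APE1, a vacuolar aminopeptidase, rose on the antisense strand by 0.70 in tagged rad6Δ, 1.28 in untagged rad6Δ and 1.72 in H2B-K123R, and by 0.75 to 0.93 in the other mutants. VRL1, which encodes a protein related to VPS9-domain trafficking factors, rose by 0.85 to 1.20 over the 6 mutants.

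HFM1 and SUT2 shifted towards antisense. HFM1 (YGL251C, chrVII:27921-31636, minus strand), a DNA helicase of meiotic crossing-over, had 8.3, 8.26 and 8.19 sense CPM in tagged rad6Δ, against 16.1, 21.2 and 16.4 CPM in the tagged wild type, and 9.03, 9.32 and 10.2 CPM in untagged rad6Δ and 10.1, 9.21 and 8.34 CPM in H2B-K123R, against 22.2, 19.3 and 19.6 CPM in the untagged wild type. Its antisense was 18.3, 16.8 and 14.4 CPM in tagged rad6Δ, against 8.65, 10.8 and 7.32 CPM in the tagged wild type, and 14.5, 17.2 and 19.9 CPM in untagged rad6Δ and 15.4, 17.4 and 14.9 CPM in H2B-K123R, against 11, 7 and 6.73 CPM in the untagged wild type. Sense was lower and antisense higher in each of these mutants without overlap.

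The balance of HFM1 rose by 1.90 to 2.17 on the log2 scale over the 6 mutants, each with an SE of 0.27 to 0.28. Antisense was 63.3 ± 2.6% to 68.9 ± 0.84% of both strands in the 6 mutants, against 33.2 ± 2.1% in the tagged and 28.5 ± 4.1% in the untagged wild type (SD, n = 3 each). The antisense calls in rtf1-AAA and rad6-R6A,M10A were lost without replicate 3 of that mutant or of the tagged wild type (0.60 to 0.65, adjusted p = 0.056 to 0.08, edgeR). SUT2, a zinc-cluster transcription factor of sterol uptake, shifted by 0.71 to 1.05 over the 6 mutants; in untagged rad6Δ the shift was not called without untagged rad6Δ replicate 1 (0.64, adjusted p = 0.052) or untagged wild-type replicate 1 (0.59, adjusted p = 0.075, edgeR).

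AMS1, PEX30 and IML3 shifted towards sense. AMS1 (YGL156W, chrVII:210416-213667, plus strand), the vacuolar alpha-mannosidase, had 137, 137 and 117 sense CPM in tagged rad6Δ, against 16.1, 9.73 and 10.6 CPM in the tagged wild type, and 121, 125 and 117 CPM in untagged rad6Δ and 89.4, 84.2 and 56.6 CPM in H2B-K123R, against 15.1, 11 and 9.67 CPM in the untagged wild type. Sense rose by 3.43, 3.34, 2.69, 1.89, 2.08 and 2.32 (SE 0.24 each) in tagged rad6Δ, untagged rad6Δ, H2B-K123R, rtf1-AAA, rad6-R6Q and last rad6-R6A,M10A. Antisense of AMS1 was called lower in tagged rad6Δ (-0.90, adjusted p = 0.0083) and rad6-R6Q (-0.74, adjusted p = 0.032, edgeR). The tagged rad6Δ call was lost without tagged rad6Δ replicate 3 (-0.74) or tagged wild-type replicate 2 (-0.67), and the rad6-R6Q call without rad6-R6Q replicate 1 (-0.54) or tagged wild-type replicate 1 or 2 (-0.72 and -0.50), with the K. lactis scaling (-0.55) and with DESeq2 (-0.74, adjusted p = 0.058). The balance changed by -4.34 to -2.31.

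PEX30 (YLR324W, chrXII:779215-780786, plus strand), an endoplasmic reticulum protein of peroxisome formation, changed on both strands: sense rose by 0.64 to 1.34, and antisense changed by -2.20 to -1.02, with all 12 of these values called. Its antisense was 1.22, 1.97 and 2.9 CPM in tagged rad6Δ, against 8.78, 5.35 and 6.94 CPM in the tagged wild type. IML3 (YBR107C, chrII:453793-454530, minus strand), a kinetochore protein, had almost as much antisense as sense in wild type, at a ratio of 0.969. Antisense of IML3 fell by 1.62 in tagged rad6Δ, 1.22 in untagged rad6Δ, 1.62 for rtf1-AAA, 1.68 for rad6-R6Q and 1.41 for rad6-R6A,M10A, and the change of -0.12 ± 0.20 in H2B-K123R was not called. H2B-K123R had more IML3 antisense than untagged rad6Δ, by 1.10 ± 0.22 (adjusted p = 0.0029, edgeR).

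Other antisense falls were YPL216W (-1.30 to -0.70 over the 6 mutants), the lipase gene MGL2 (-2.06 to -1.27) and YGP1 (-1.49 to -0.96), which encodes a secreted cell-wall glycoprotein of nutrient-limited cells. ASI2, of the Asi ubiquitin ligase in the inner nuclear membrane, fell by 2.37 in tagged rad6Δ, 1.10 in H2B-K123R, 1.95 for rtf1-AAA, 2.20 for rad6-R6Q and 1.74 for rad6-R6A,M10A, and the change of -0.65 ± 0.29 in untagged rad6Δ was not called. YGP1 and ASI2 are neighbours that point at each other, 868 bp apart. ARR3, the arsenite exporter, fell by 1.99 for rtf1-AAA, 1.78 for rad6-R6Q and 1.09 for rad6-R6A,M10A. Its fall of 0.73 ± 0.23 in tagged rad6Δ (adjusted p = 0.017, edgeR) was lost with the K. lactis scaling, without tagged rad6Δ replicate 1 or 2 and without tagged wild-type replicate 2 or 3.

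At the top of the rule, 2 of 4 genes gave no antisense call. RTC5, a regulator of the vacuolar proton pump, had the most wild-type antisense counts, 1846, and SPO1, a meiotic gene, had the highest ratio, 0.983. Neither was called on the antisense strand in any of the 6 mutants: RTC5 changed by -0.36 to 0.01 and SPO1 by -0.70 to 0.15 on the log2 scale. RTC5 antisense was 35.8, 32.3 and 33.5 CPM in tagged rad6Δ, against 33.8, 45.1 and 41.1 CPM in the tagged wild type, and the groups overlapped. The genes next to them were called: IML3, with the second highest ratio, in 5 mutants as given above, and PRM1, with the second most antisense counts, in 5. PRM1 antisense was lower in tagged rad6Δ (-0.62), for rad6-R6Q (-1.01), for rad6-R6A,M10A (-0.95) and for rtf1-AAA (-1.10) and higher in H2B-K123R (0.46 ± 0.14, adjusted p = 0.015, edgeR), the last call being lost without untagged wild-type replicate 1 and with the K. lactis scaling.

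URA3 and LYS2 are among the 247 genes, and all strains carry the ura3-52 and lys2-128δ alleles there. URA3, of pyrimidine synthesis, had antisense changes of -0.72 and -0.84 in tagged and untagged rad6Δ, both called, the first not without tagged rad6Δ replicate 2 and not with the K. lactis scaling. LYS2, of lysine synthesis, had an antisense change of 0.80 in untagged rad6Δ, also called, and of 0.47 in tagged rad6Δ (adjusted p = 0.041, edgeR), a call lost in 7 of the alternative settings, among them DESeq2 and leaving out tagged rad6Δ replicate 1 or 2 or tagged wild-type replicate 1 or 2. These genes were picked out after their values had been seen.

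The mutants were last compared with the RAD6 deletion of the same tag status, where no library of the compared strains had taken part in choosing the genes. On the antisense strand 11 of 247 genes (4.45%; 5 higher, 6 lower) were called in rad6-R6Q over tagged rad6Δ, against 2.65% of all genes tested (1.23% higher, 1.42% lower). For rad6-R6A,M10A there were 7 calls (2.83%; 4 higher, 3 lower) against 1.63% (0.775% higher, 0.855% lower), and for rtf1-AAA 12 (4.86%; 6 higher, 6 lower) against 3.18% (1.5% higher, 1.68% lower). H2B-K123R over untagged rad6Δ gave 38 calls (15.4%; 37 higher, 1 lower) against 4.41% of all genes tested (3.88% higher, 0.535% lower). The median antisense difference there was 0.33, against 0.13 over all genes tested.

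The H2B-K123R count depended on single choices: it was 15 genes (6.07%) without untagged rad6Δ replicate 2 and 14 (12 higher, 2 lower) with the K. lactis scaling, which moved the sense median of all genes to -0.21. On the sense strand 45 genes (18.2%; 14 higher, 31 lower) were called in rad6-R6Q over tagged rad6Δ, against 16.4% (8.22% higher, 8.22% lower). There were 31 calls (12.6%; 11 higher, 20 lower) for rad6-R6A,M10A, against 8.55% (3.71% higher, 4.84% lower), and 41 (16.6%; 11 higher, 30 lower) for rtf1-AAA, against 14.3% (6.44% higher, 7.89% lower). H2B-K123R over untagged rad6Δ gave 37 (15%; 21 higher, 16 lower), against 10.5% (5.25% higher, 5.27% lower). With the K. lactis scaling the H2B-K123R split was 15 higher and 41 lower, and that of rtf1-AAA 13 higher and 22 lower. Antisense calls in rtf1-AAA were then 8 higher and 4 lower. For these counts too, the share of all genes called with the K. lactis scaling was not counted.

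As the surrounding pathway, 44 genes for factors that restrain or process antisense RNA, from the Paf1 complex to the nuclear exosome, were counted on the sense strand. In tagged rad6Δ 14 were higher and 5 lower, in untagged rad6Δ 13 and 4, in H2B-K123R 5 and 2, for rtf1-AAA 16 and 3, for rad6-R6Q 18 and 2, and for rad6-R6A,M10A 10 and 4. As shares these were 31.8% higher and 11.4% lower in tagged rad6Δ, against 21.5% and 20.2% of all genes tested, 29.5% and 9.09% in untagged rad6Δ against 22.3% and 20.5%, 11.4% and 4.55% in H2B-K123R against 14% and 12.3%, 36.4% and 6.82% for rtf1-AAA against 11.9% and 12.6%, 40.9% and 4.55% for rad6-R6Q against 14.6% and 14.5%, and 22.7% and 9.09% for rad6-R6A,M10A against 12% and 13.2%. The deleted RAD6 is 1 of those lower in the rad6Δ strains. RAD6 is also 1 of those higher for rtf1-AAA, for rad6-R6Q and for rad6-R6A,M10A. RTF1, tagged or altered in some of the strains, is 1 of those higher in every mutant but H2B-K123R. With the K. lactis scaling H2B-K123R had 2 higher and 4 lower, while the other mutants had more rises than falls. In those other mutants this scaling also moved the median sense change of all genes up, to between 0.12 and 0.25. Nothing is therefore read from their splits. How many of all genes were called with that scaling was not counted. The median change of the list was 0.08, 0.14, 0.03, 0.23, 0.22 and 0.14, and the median of all genes tested was within 0.0203 of 0 in each.

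SPT5, an elongation factor that travels with the polymerase, rose by 0.96 in tagged rad6Δ, 0.79 in untagged rad6Δ, 0.43 in H2B-K123R, 0.95 for rtf1-AAA, 1.08 for rad6-R6Q and 0.83 for rad6-R6A,M10A. POB3, a subunit of the histone chaperone FACT, rose by 0.74, 0.89, 0.56, 0.60, 0.70 and 0.50 in that order. DOT1, the methyltransferase of H3 that depends on H2B ubiquitylation, changed by -0.43, -0.26, -0.30, -0.38, -0.41 and -0.33, all called, but with the K. lactis scaling the DOT1 call was kept in H2B-K123R alone (-0.39) and lost in the others (-0.24 to -0.12). The SPT5 and POB3 calls were kept with that scaling. SPT4, also on the list, went the other way. It changed by -0.72 in tagged rad6Δ, -0.47 in untagged rad6Δ, -0.43 for rtf1-AAA and -0.53 for rad6-R6A,M10A, all called. Its changes of -0.30 in H2B-K123R and -0.29 for rad6-R6Q were not called. With the K. lactis scaling 0 genes of the list were called lower for rtf1-AAA and 0 for rad6-R6A,M10A. No call was made in the 6 mutants for SET1, the other methyltransferase that depends on it, for BRE1, the ubiquitin ligase that works with Rad6, or for RRP6, a nuclear exosome nuclease.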

How the data were processed

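The authors deposited raw read counts per gene from 24 strand-specific libraries in 3 counting modes (sense strand, antisense strand and without strand) and raw K. lactis counts; counts were not normalized before deposit. STAR 2.7.5a, featureCounts and DESeq2, with the builds R64 and sacCer3, are named in the submitters' processing notes. How strictly the library kit kept the strands apart was not measured here. The 247 genes and the gene lists were chosen with earlier results of these data known.

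Sense and antisense counts were fitted separately with edgeR 4.0.16 (R 4.3.3): genes passing filterByExpr, TMM factors from the sense counts, robust quasi-likelihood tests over all 8 groups, and Benjamini-Hochberg adjustment over all genes tested (5790 sense, 3741 antisense). The antisense-to-sense balance was tested in 1 fit of 48 columns with a term for each library (3242 genes). The procedures were tested on simulated data. Genes with adjusted p below 0.05 count as called, and an SE is the log2 fold change divided by the root of F. Alternatives were DESeq2 1.42.0 and limma 3.58.1, median-of-ratios and K. lactis scaling, no filter, other thresholds of the selection rule, fits of the compared groups alone, each library left out, and a replicate block. Named genes were the called genes with the largest change per mutant and strand (at least 2 CPM and no overlap), those called in most mutants, those at the edges of the rule, members of a list of genes with published antisense, and the widest differences between mutants.

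Replicate numbers come from the labels. Deviations of same-numbered libraries correlated at 0.287 to 0.585 between tagged rad6Δ and the tagged wild type. They correlated at 0.302 to 0.492 between rad6-R6Q and that wild type, and at 0.208 to 0.452 between rad6-R6Q and tagged rad6Δ. The reported tests do not pair these libraries, and a fit with replicate number as a block was run as an alternative. The other comparisons share a number only. Nothing in the labels says how far apart in time or culture the replicates were.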

Additional observations from a re-analysis of the deposited data

Results flagged for a closer look

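The effect of deleting RAD6 on the antisense strand differed between the tagged and the untagged strains for 10 of the 247 genes by edgeR's interaction test (tagged minus untagged log2 change, adjusted p under 0.05 over all genes tested). The differences were -1.72 ± 0.29 for PDX3 (pyridoxamine phosphate oxidase, adjusted p = 0.0014), -1.77 ± 0.30 for PHO84 (adjusted p = 0.002), -1.28 for INO1 (inositol synthesis, adjusted p = 0.0094), 1.33 for SWE1 (the kinase that delays mitosis, adjusted p = 0.0094) and -0.98 ± 0.20 for PRM1 (adjusted p = 0.0094). KIC1, a kinase of cell wall integrity, differed by -1.23 (adjusted p = 0.015, edgeR), SMT1, a mitochondrial translation factor, by -1.29 (adjusted p = 0.024), GPP2, a glycerol phosphatase, by -1.15 (adjusted p = 0.026), ATG15, a vacuolar lipase, by -1.44 (adjusted p = 0.034) and ASI2 by -1.72 (adjusted p = 0.048).

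PDX3 antisense was 3.78, 3.33 and 4.16 CPM in tagged rad6Δ, against 14.1, 16.8 and 11.1 CPM in the tagged wild type, and 5.89, 4.71 and 4.52 CPM in untagged rad6Δ, against 5.15, 6.19 and 5.63 CPM in the untagged wild type. The tagged wild type stood apart from the other 3 strains. On the sense strand 1 gene, PHO5, was called, with a difference of 2.99 ± 0.60 (adjusted p = 0.039, edgeR). The calls of ASI2, ATG15, GPP2, PHO5 and SMT1 were lost in 16, 13, 10, 10 and 8 of the alternative settings, that of KIC1 in 3, and that of PRM1 with the K. lactis scaling alone (adjusted p = 0.06). The PDX3, INO1, SWE1 and PHO84 calls were kept in all settings run. Tag and strain cannot be told apart in these differences.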

How the results depend on the processing

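Of 425 alternative counts of called genes for 27 results, 390 stayed within 1.5 times the reported count. With the K. lactis scaling, called antisense shares were 5.67% in H2B-K123R over untagged rad6Δ, 20.2% for rad6-R6A,M10A and 23.5% for rtf1-AAA over the tagged wild type, and 2.02% for the tagged-minus-untagged RAD6 effect, and the sense share in H2B-K123R over untagged rad6Δ was 22.7%. An antisense minimum of 240 gave 6.25% for the tagged-minus-untagged effect. Fits of the compared groups alone gave 2.02% (antisense) and 9.31% (sense) for rad6-R6Q over tagged rad6Δ, 0.405% for antisense in rtf1-AAA over tagged rad6Δ and 17% for sense in rtf1-AAA over the tagged wild type. Without the filter, antisense in rad6-R6Q over tagged rad6Δ was 2.83%. The causes were not tested.

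Leaving out 1 library at a time gave antisense shares of 6.07% to 12.1% in H2B-K123R over untagged rad6Δ, 1.21% to 2.43% for rad6-R6A,M10A, 1.62% to 5.26% for rad6-R6Q and 1.21% to 4.86% for rtf1-AAA over tagged rad6Δ, and 2.02% to 4.05% for the tagged-minus-untagged effect. The sense shares were 8.91% to 12.6% in H2B-K123R, 8.1% to 11.3% for rad6-R6A,M10A and 10.1% to 22.7% for rad6-R6Q over the same strains. Of 5798 alternative values of named genes, 5191 kept their call, 607 lost it, 450 of them with a library left out, and 0 reversed.

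With replicate number as a block, the called antisense share was 46.2% in tagged rad6Δ and 42.1% for rad6-R6Q over the tagged wild type. It was 5.67% for rad6-R6Q over tagged rad6Δ. In these comparisons same-numbered libraries correlated, and the reported tests leave the block out. The block ended no call of a named gene and moved no count by over 1.5 times, in these or in the comparisons that share a number only. Genes with few antisense counts limit the depth: the lowest gene had 120 antisense counts over 6 wild-type libraries, and a change from wild type shares those libraries with the choice of the genes.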

Other observations

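Which strand led changed for a part of the genes. By summed counts of a group, antisense was above sense for 14 of the 247 genes in tagged rad6Δ, 8 for rtf1-AAA, 10 for rad6-R6Q and 11 for rad6-R6A,M10A, against 12 in the tagged wild type, and for 15 in untagged rad6Δ and 17 in H2B-K123R, against 4 in the untagged wild type. Antisense above sense in all 3 libraries of a group was seen for 8, 6, 4, 6, 10 and 11 genes in those mutants, against 1 in each wild type. At the other edge, antisense was under 0.1 of sense for 43 genes in tagged rad6Δ, 26 for rtf1-AAA, 36 for rad6-R6Q and 21 for rad6-R6A,M10A, against 0 in the tagged wild type, and for 45 in untagged rad6Δ and 18 in H2B-K123R, against 21 in the untagged wild type. The rule, applied to the wild types summed, bounds their values at both edges, so these counts are a description without a test.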
